A study of Mus musculus with 6 samples.

Results

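The genes of Wnt signalling described here are its ligands, receptors and modulators, in cells sorted as satellite cells, which regenerate skeletal muscle. They were chosen by gene symbol alone: Wnt, frizzled, Sfrp, Dkk, R-spondin and Lgr genes, Lrp5 and Lrp6, the Axin, Dishevelled and TCF/LEF genes, and Ctnnb1, Apc, Wif1, Porcn, Wls, Znrf3 and Rnf43. The rule found 62 of the 23361 genes of the authors' deposited table, and 42 of them were among the 14858 genes that the authors tested. RNA was sequenced from 3 AUF1-null and 3 wild-type samples of mice aged 4 months, on a background the labels describe as C57BL/6 with 129. The cells of all 6 samples came from collagenase-digested hindlimb muscle and were sorted for Sdc4, a cell surface proteoglycan. AUF1, encoded by Hnrnpd, is an RNA-binding protein that recognises AU-rich elements in 3' UTRs. The labels do not say whether the null allele is confined to a cell type, nor whether samples of a genotype came from separate mice.

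The authors' deposited table gives 1 pooled value per gene for each of 2 conditions, on the FPKM scale, which is per transcript length and library size. The conditions are called q2 and q1, and no label used here states which genotype each one holds. Every direction below is therefore that of q2 relative to q1, and no difference is assigned to the loss of AUF1. No value has an SD or an n, because values of single samples were not analysed here. The p- and q-values are those of Cuffdiff in the authors' deposited table, with the q-value adjusted over all tested genes. A gene is called where q is below 0.05. Hnrnpd itself, at 5.59 FPKM in q2 and 7.50 FPKM in q1, was not called (q = 0.999 in the authors' deposited table), so it does not tell the conditions apart.

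Wnt proteins are lipid-modified by Porcn, carried to the cell surface by Wls and bound there by a frizzled receptor with Lrp5 or Lrp6. Through Dishevelled this stops the Axin and Apc complex from marking beta-catenin for breakdown, and beta-catenin then works with TCF/LEF factors in the nucleus. Sfrp proteins and Wif1 bind Wnts outside the cell, and R-spondins bound to Lgr receptors remove Znrf3 and Rnf43, the ligases that clear frizzled receptors. In mouse muscle, Wnt7a acting on Fzd7 promotes the symmetric division of satellite cells, and Sdc4 is a co-receptor of Fzd7 there.

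No Wnt gene was called in either direction. The 42 tested members compare with 0.612% of all tested genes called, or 0.498% higher and 0.114% lower in q2. By the unadjusted Cuffdiff p below 0.05, 4 members differed in the authors' deposited table: Fzd7, Fzd8 and Rspo1 were lower in q2, and Tcf7 was higher. That is 9.52% of tested members, against 5.99% of all tested genes. In the direction of lower values it is 3 of the 42 tested members, against 2.27% of all tested genes. In that of higher values it is 1 of the 42, against 3.72%. The smallest q among the members was 0.502, for Fzd7, in the authors' deposited table. Values below 0 on the log2 scale were found for 30 of the 42 tested members, or 71.4%, against 51.3% of all tested genes. The median log2 fold change was -0.23 over the tested members and -0.01 over all tested genes above 0 on both sides, from the authors' deposited table. Frizzled receptors and their co-receptors lay furthest below 0 as groups, with medians of -0.72 and -0.62, and the cytoplasmic genes lay at 0.01.

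**Figure D1:**
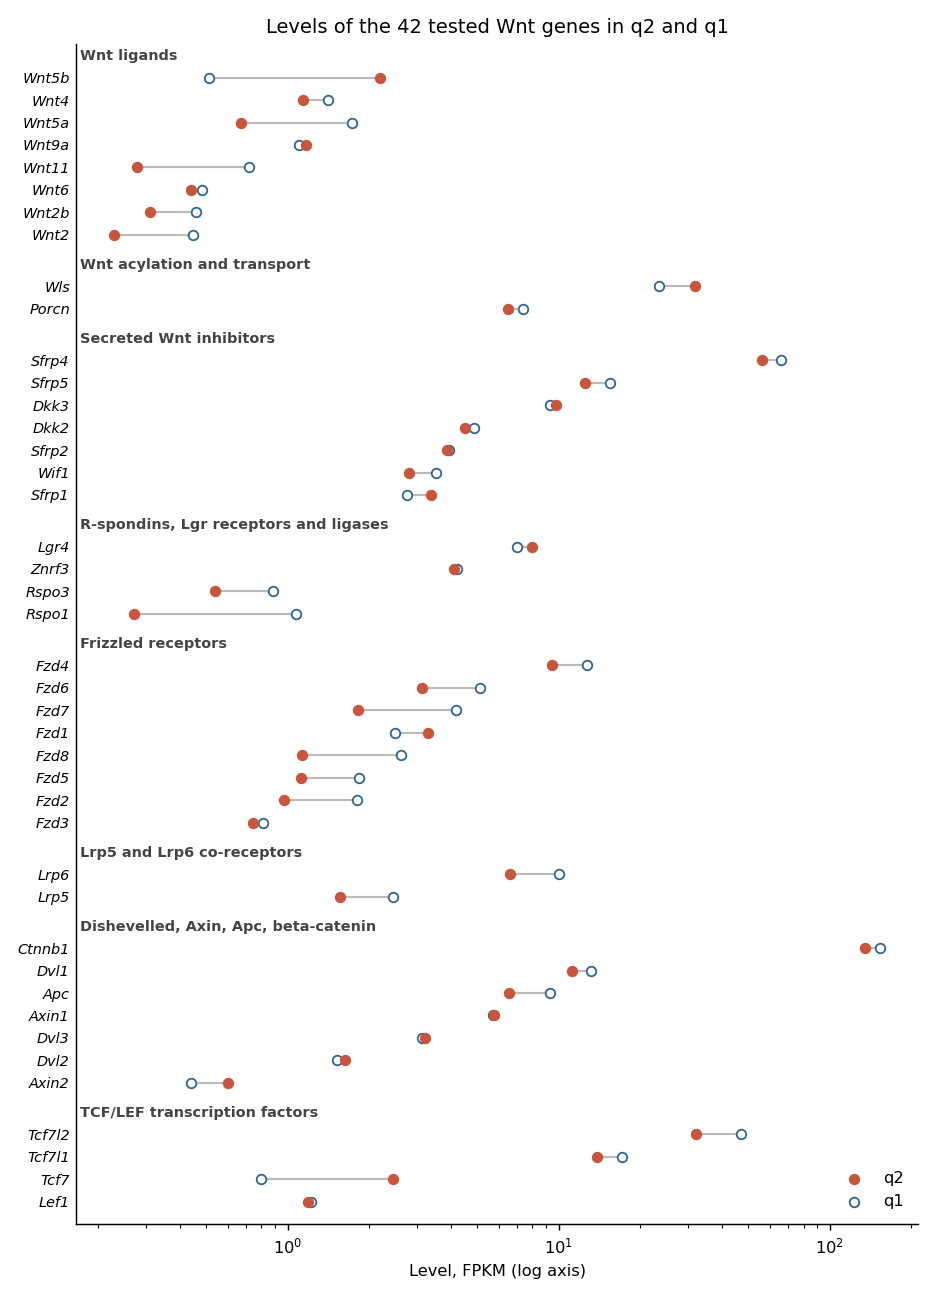
Level of each of the 42 tested Wnt genes in FPKM on a log axis, grouped by role and ordered by mean level within a role. Filled points are q2 and open points q1, each 1 pooled value with no error. Ctnnb1 stands highest at 135 in q2 and 153 in q1, and the 8 tested Wnt ligands all lie below 3 FPKM in both.

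**Figure D2:**
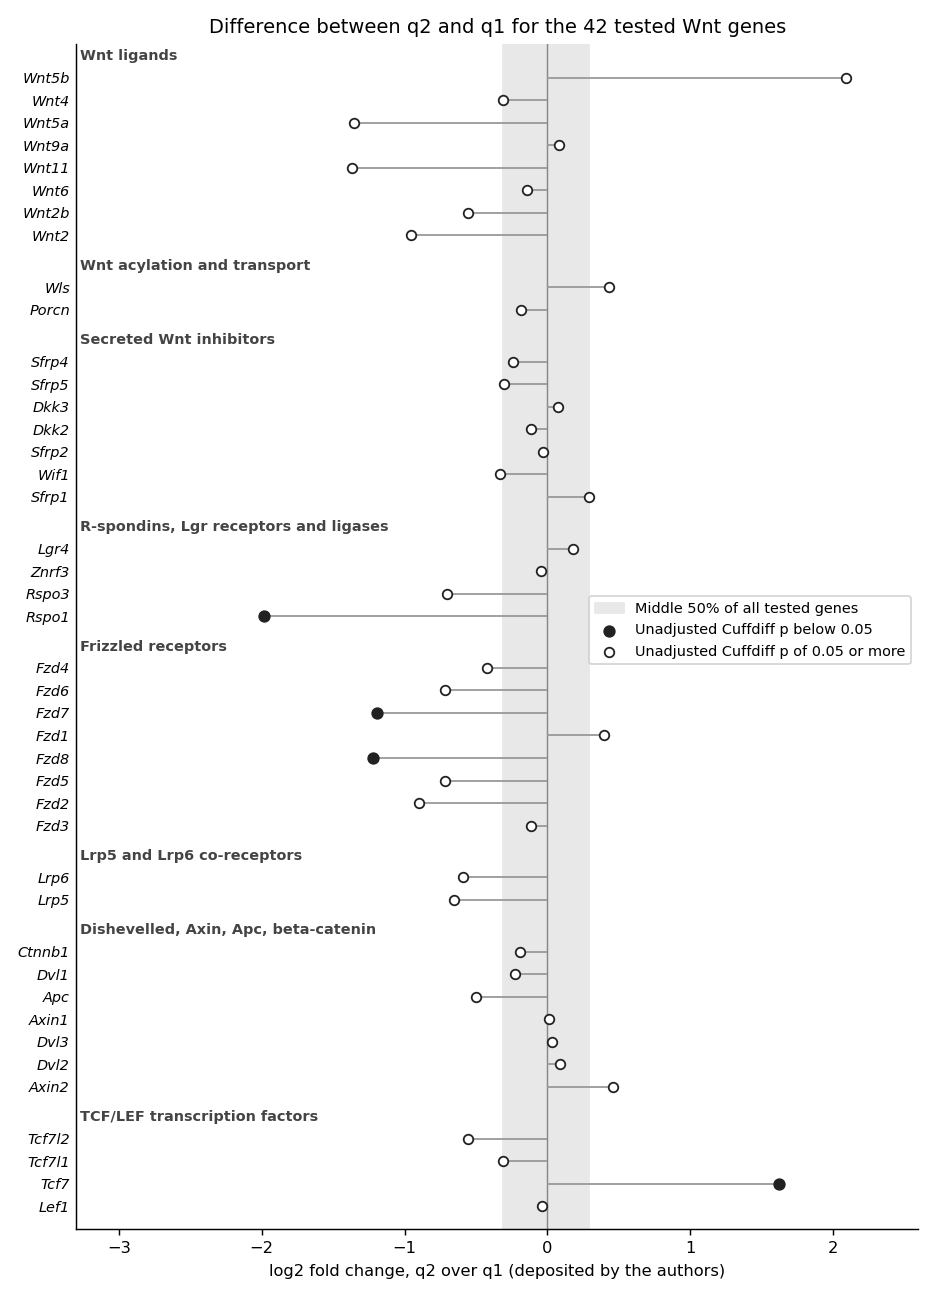
log2 fold change of q2 over q1, as deposited, for the same 42 genes. Filled points have an unadjusted Cuffdiff p below 0.05, and the grey band holds the middle 50% of all tested genes, from -0.31 to 0.29. Of 10 tested frizzled and co-receptor genes, 9 lie left of 0.

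The sorted cells carried few transcripts of any Wnt ligand. Of 19 ligand genes in the table, 8 were tested, and their levels summed with the rest to 6.69 FPKM in q2 and 7.17 FPKM in q1. The other 11 were not tested, and none of these exceeded 0.142 FPKM in either condition. Wnt5b, whose value is uncertain as described below, made up 32.7% of the ligand sum in q2 and 7.13% in q1. The log2 ratio of the ligand sums, q2 over q1, was -0.10 with Wnt5b and -0.56 without it. Wnt7a, the ligand tied to satellite cell expansion, was among 4 ligands listed at 0 in both conditions, with Wnt3a, Wnt8a and Wnt8b.

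Wnt5a, a ligand that mostly acts without beta-catenin, stood at 0.675 FPKM in q2 and 1.73 FPKM in q1. By the authors' deposited table the log2 fold change was -1.36, with Cuffdiff p = 0.0559 and q = 0.869, or -0.70 with a pseudocount of 1 FPKM. It made up 10.1% of the summed ligand level in q2 and 24.1% in q1. Wnt5a was thus the most abundant ligand in q1 but only the fourth in q2. Wnt5b, its closest relative in the family, went the other way, with 2.19 FPKM in q2 and 0.512 FPKM in q1. The log2 fold change of Wnt5b was 2.10, or 1.08 with a pseudocount of 1 FPKM, with Cuffdiff p = 0.244 and q = 0.999 in the authors' deposited table. That value is uncertain, since Wnt5b shares the position chr6:119432531-119544347 (GRCm38) in the table with Fbxl14, which was at 1.51 FPKM in q2 and 2.78 FPKM in q1. Neither ligand passed the test.

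Wnt4 had 1.14 FPKM in q2 and 1.41 FPKM in q1. Wnt9a had 1.17 FPKM in q2 and 1.10 FPKM in q1. Both were nearly level between the conditions, and the authors' deposited table gives log2 fold changes of -0.31 for Wnt4 and 0.08 for Wnt9a. The remaining 4 tested ligands, Wnt11, Wnt6, Wnt2b and Wnt2, lay between 0.230 and 0.440 FPKM in q2 and between 0.446 and 0.719 FPKM in q1. All 4 were lower in q2, none with an unadjusted p below 0.05, and Wnt11 had the largest difference among them, a log2 fold change of -1.37 (p = 0.158 in the authors' deposited table).

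The machinery that releases Wnt proteins was more abundant than any single ligand. Wls, the carrier of Wnt proteins to the cell surface, was at 31.7 FPKM in q2 and 23.5 FPKM in q1, above 81.2% and 76.1% of all tested genes. Wls had a log2 fold change of 0.43 (p = 0.242 in the authors' deposited table). Porcn, the acyltransferase, was at 6.48 FPKM in q2 and 7.37 FPKM in q1. The summed level of both genes was 1.24 times as high in q2 as in q1, a difference carried by Wls, since Porcn alone was 1.14-fold lower in q2.

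Genes grouped here by family as secreted inhibitors of the pathway ranged widely in level. Whether each of them, Dkk3 and Dkk2 included, inhibits the pathway in these cells was not tested. Sfrp4 alone made up 60.2% in q2 and 62.1% in q1 of the summed level of the group. Sfrp4, a secreted frizzled-related protein that binds Wnts, had 55.97 FPKM in q2 and 65.97 FPKM in q1, the second highest level of all members in both. Sfrp5, of the same family, had 12.5 FPKM in q2 and 15.4 FPKM in q1. Dkk3, a divergent Dickkopf protein, had 9.75 FPKM in q2 and 9.26 FPKM in q1. These 3 genes differed by at most 1.23-fold between the conditions.

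Dkk2, which binds Lrp5 and Lrp6, was at 4.51 FPKM in q2 and 4.88 FPKM in q1. Sfrp2 was at 3.86 FPKM in q2 and 3.95 FPKM in q1, and Sfrp1 at 3.36 FPKM in q2 and 2.75 FPKM in q1. Wif1, which binds Wnts through a domain unlike that of the Sfrp proteins, was at 2.81 FPKM in q2 and 3.53 FPKM in q1. All 7 tested inhibitors had an unadjusted Cuffdiff p of 0.490 or more in the authors' deposited table, with log2 fold changes between -0.33 and 0.29. Dkk1 and Dkk4 were not tested and were at 0.274 FPKM or less in both conditions. Summed over all 9 inhibitors, the level was 93.0 FPKM in q2 and 106 FPKM in q1. The inhibitors' sum was 13.9 times that of the ligands in q2 and 14.8 times in q1. Both ratios include the uncertain Wnt5b value, 32.7% of the ligand sum in q2 and 7.13% in q1, so their order is uncertain as well.

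In the R-spondin axis no gene was called, and only the receptor gene Lgr4 and the ligase gene Znrf3 exceeded 2 FPKM. Rspo1, a secreted ligand of Lgr receptors, had 0.271 FPKM in q2 and 1.07 FPKM in q1, a 3.97-fold lower value in q2. By the authors' deposited table the log2 fold change of Rspo1 was -1.99, with Cuffdiff p = 0.0313 and q = 0.727, or -0.71 with a pseudocount of 1 FPKM, because both levels are low. Rspo3 was at 0.541 FPKM in q2 and 0.881 FPKM in q1 (p = 0.434 in the authors' deposited table). Lgr4, the receptor, was at 7.98 FPKM in q2 and 7.03 FPKM in q1, and Znrf3, the ligase, at 4.09 FPKM in q2 and 4.22 FPKM in q1. Neither Lgr4 nor Znrf3 had an unadjusted p below 0.05. Lgr5, Lgr6, Rnf43, Rspo2 and Rspo4 were not tested, at no more than 0.320 FPKM in either condition.

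Frizzled receptors were lower in q2 for 7 of 8 tested genes, though none was called. Fzd7, the receptor of Wnt7a in satellite cells, at chr1:59482147-59486955 (GRCm38), had 1.82 FPKM in q2 and 4.18 FPKM in q1. This 2.29-fold lower value in q2, a log2 fold change of -1.20, had Cuffdiff p = 0.0126 and q = 0.502 by the authors' deposited table. Fzd8 had 1.13 FPKM in q2 and 2.62 FPKM in q1, with a log2 fold change of -1.22, Cuffdiff p = 0.0455 and q = 0.803 by the authors' deposited table. Among all tested genes with a mean of 1 to 5 FPKM, the middle 90% of log2 fold changes ran from -0.98 to 1.48, and both receptors lay below that range. Of the other members in that range of means, Wnt5a, at -1.36, also lay below it. Tcf7, at 1.62, and Wnt5b, at 2.10, lay above it. Both receptors were singled out by their unadjusted p, so their place in the tail is a description only. Neither receptor's difference passed the adjustment.

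Fzd4, the receptor of norrin in endothelial cells and the most abundant frizzled, had 9.47 FPKM in q2 and 12.7 FPKM in q1. Fzd6 had 3.12 FPKM in q2 and 5.14 FPKM in q1 (p = 0.0968 in the authors' deposited table). Fzd5 had 1.12 FPKM in q2 and 1.84 FPKM in q1, and Fzd2 had 0.970 FPKM in q2 and 1.81 FPKM in q1. These 4 receptors had log2 fold changes between -0.90 and -0.43 in the authors' deposited table. Fzd1 was the exception, with 3.28 FPKM in q2 and 2.49 FPKM in q1 (log2 fold change 0.40, p = 0.421 in the authors' deposited table). Fzd3 was at 0.746 FPKM in q2 and 0.809 FPKM in q1. Fzd9 and Fzd10 were not tested, at 0.157 FPKM or less.

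The summed frizzled level was 21.8 FPKM in q2 and 31.7 FPKM in q1, a ratio of 0.688. Without Fzd4 the log2 ratio of the sums was -0.62, against -0.54 with it, and without Fzd7 and Fzd8 it was -0.40, a setting chosen after seeing the data. The lower sum in q2 is therefore spread over several receptors. Fzd1 took 15.1% of the frizzled sum in q2 and 7.85% in q1, while Fzd7 took 8.36% in q2 and 13.2% in q1.

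Both co-receptors were lower in q2 without passing the test. Lrp6 had 6.62 FPKM in q2 and 9.99 FPKM in q1, and Lrp5 had 1.56 FPKM in q2 and 2.45 FPKM in q1. The authors' deposited table gives log2 fold changes of -0.59 for Lrp6 (p = 0.0879) and -0.65 for Lrp5 (p = 0.182).

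**Figure D3:**
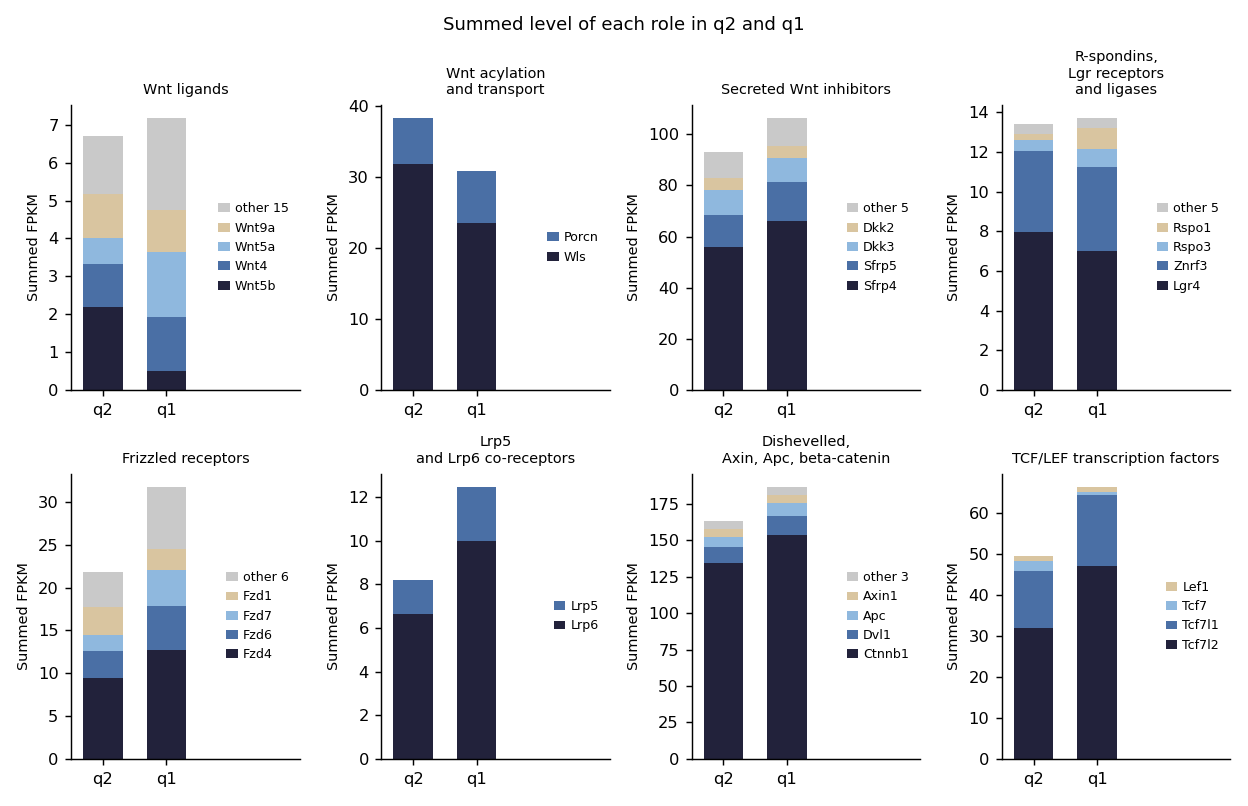
Summed FPKM of all 62 Wnt genes by role, with q2 left of q1 in each panel and each axis starting at 0. Segments are the 4 genes with the highest mean in a role, and grey is the sum of the others; values are pooled and have no error. The frizzled sum is 21.8 in q2 and 31.7 in q1, and Ctnnb1 takes over 80% of the cytoplasmic sum in both.

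Inside the cell, the genes of beta-catenin, Axin1, the Dishevelled adaptors and Lef1 differed by at most 1.17-fold. Apc, Tcf7l2 and Tcf7l1, all lower in q2, differed more, as did Axin2 and Tcf7, both higher in q2. None of these genes was called. Ctnnb1, which encodes beta-catenin, had 135 FPKM in q2 and 153 FPKM in q1, above 94.7% and 95.5% of all tested genes. Ctnnb1 had a log2 fold change of -0.19 (p = 0.625 in the authors' deposited table). Dvl1, a Dishevelled adaptor, was at 11.2 FPKM in q2 and 13.1 FPKM in q1, and it shares its position in the table with Tas1r3. Dvl3 was at 3.21 FPKM in q2 and 3.13 FPKM in q1, and Dvl2 at 1.63 FPKM in q2 and 1.53 FPKM in q1.

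Of the breakdown complex, the scaffold gene Axin1 had 5.76 FPKM in q2 and 5.72 FPKM in q1. The tumour suppressor gene Apc had 6.55 FPKM in q2 and 9.28 FPKM in q1 (log2 fold change -0.50, p = 0.146 in the authors' deposited table), and it shares its position there with Gm10548. Axin2, a feedback inhibitor and widely used readout of beta-catenin activity, was low, with 0.604 FPKM in q2 and 0.438 FPKM in q1. Its log2 fold change was 0.46 (p = 0.572 in the authors' deposited table).

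The TCF/LEF factors were led by Tcf7l2, which had 32.0 FPKM in q2 and 47.0 FPKM in q1 and is also a marker of muscle connective tissue fibroblasts. Its log2 fold change was -0.56 (p = 0.140 in the authors' deposited table). Tcf7l1, mostly a repressor, had 13.8 FPKM in q2 and 17.1 FPKM in q1, and Lef1 had 1.18 FPKM in q2 and 1.22 FPKM in q1. Tcf7l1 shares its position in the table with Gm15401.

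Tcf7, which encodes TCF1 and is best known from T cells, had 2.46 FPKM in q2 and 0.798 FPKM in q1, a 3.08-fold higher value in q2. The authors' deposited table gives a log2 fold change of 1.62 with Cuffdiff p = 0.0265 and q = 0.673, or 0.94 with a pseudocount of 1 FPKM. Tcf7 took 4.97% of the TCF/LEF sum in q2 and 1.21% in q1, so Tcf7l2 and Tcf7l1 held most of it in both conditions. T cell markers were higher in q2 as well: of 18 listed genes 16 were tested, 15 of these were above 0, and their median log2 fold change was 2.05. That list was chosen after the values of Tcf7 were seen. Its summed level was 75.7 FPKM in q2 and 36.3 FPKM in q1, and no marker was at 0. Cd247, the most abundant gene of the list in both conditions, was nearly level, at 18.4 FPKM in q2 and 18.8 FPKM in q1. Only 1 gene of the list was called, Ccr7, with 13.4 FPKM in q2 and 2.54 FPKM in q1 (q = 0.0275 in the authors' deposited table). Cd3e had 1.96 FPKM in q2 and 0.458 FPKM in q1. The part of T cells in the Tcf7 value was not tested.

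**Figure D4:**
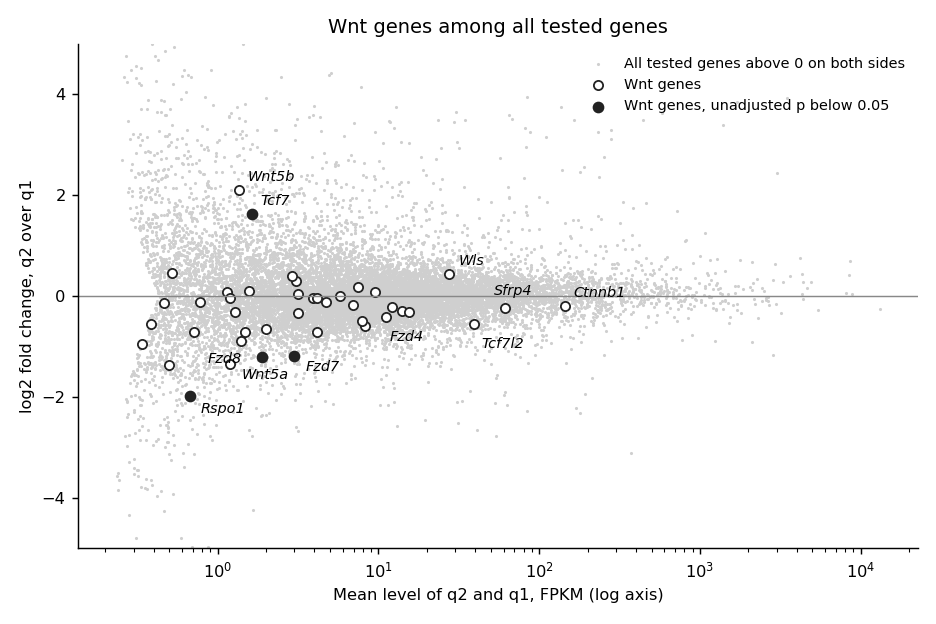
log2 fold change of q2 over q1 against the mean level of both conditions in FPKM (log axis), for all tested genes above 0 on both sides (grey) and the Wnt genes (circles, filled where the unadjusted Cuffdiff p is below 0.05). Another 19 genes have a log2 fold change beyond 5 in either direction and are not drawn. Fzd7, Fzd8 and Rspo1 lie below 0 and Tcf7 above it, all at means under 5 FPKM, where the grey points spread widely.

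Transcripts of marker genes of other cell types were present in the sorted material, and the levels of some differed between the conditions. Satellite cell markers lay above 0 for 6 of 12 genes, all tested and none called, and summed to 511 FPKM in q2 and 455 FPKM in q1, with no marker at 0. The sorting marker Sdc4 was at 270 FPKM in q2 and 173 FPKM in q1. Sdc4 carried the higher sum in q2, since the other markers of that list together were lower in q2 than in q1. Among the myogenic transcription factor genes on that list, Myf5 was at 17.8 FPKM in q2 and 16.7 FPKM in q1, Pax7 at 0.854 FPKM in q2 and 1.16 FPKM in q1, and Myod1 at 0.880 FPKM in q2 and 0.627 FPKM in q1. The surface marker genes Itga7, at 26.3 FPKM in q2 and 31.8 FPKM in q1, and Vcam1, at 65.1 FPKM in q2 and 90.8 FPKM in q1, were also well above Pax7. Chodl, another surface marker gene of the list, was at 21.7 FPKM in q2 and 32.1 FPKM in q1. Fgfr4, Calcr and Cdh15 lay nearer to Pax7 and did not share a direction. Fgfr4 was lower in q2, at 4.82 FPKM in q2 and 5.23 FPKM in q1, while Calcr and Cdh15 were higher. Calcr was at 2.26 FPKM in q2 and 1.52 FPKM in q1, and Cdh15 at 2.43 FPKM in q2 and 2.01 FPKM in q1. All 10 neutrophil markers lay above 0, 9 of them called, and summed to 15229 FPKM in q2 and 1175 FPKM in q1. Endothelial markers lay below 0 for 10 of 10 genes, fibro-adipogenic and fibroblast markers for 7 of 10, tendon markers for 8 of 8, and pericyte and smooth muscle markers for 6 of 9. The summed levels of these lists were 14593, 5802, 345 and 4676 FPKM in q2, and 17363, 6692, 452 and 3617 FPKM in q1, with no marker at 0 and none called. Fabp4, at 12031.5 FPKM in q2 and 14386 FPKM in q1, made up most of the endothelial sum. Rgs5, at 3553 FPKM in q2 and 2279 FPKM in q1, carried the higher pericyte sum in q2. The other pericyte and smooth muscle markers together were lower in q2. Schwann cell markers lay above 0 for 6 of 8 genes and macrophage markers for 6 of 9, with Ccr2 called higher. Their part in the frizzled, Lrp and R-spondin values was not tested. In bulk RNA, fewer cells of a type and less RNA per cell cannot be told apart.

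Outside the named families, 5 further lists of Wnt pathway genes held 125 gene symbols, of which 121 were in the table, 108 were tested and none was called. Values below 0 were found for 73 of them, or 67.6%, against 51.3% of all tested genes, and the median log2 fold change was -0.22. By the unadjusted Cuffdiff p below 0.05, 2 were higher and 6 lower in q2 in the authors' deposited table, in all 7.41% of those tested, against 5.99% of all tested genes. All but 1 of those were on the list of genes described as targets of beta-catenin and TCF, where 7 of 23 tested genes had a p below 0.05, or 30.4%. Of these, 2 were higher and 5 lower in q2, against 3.72% higher and 2.27% lower over all tested genes. The lists were chosen with earlier results of these data known, so these shares are a description only.

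Ccnd1, the gene of cyclin D1, had 11.2 FPKM in q2 and 25.7 FPKM in q1 (p = 0.00195, q = 0.187 in the authors' deposited table). Twist1, a mesenchymal transcription factor gene, had 0.803 FPKM in q2 and 2.86 FPKM in q1 (p = 0.0115, q = 0.485 in the authors' deposited table). Cd44, the hyaluronan receptor gene, had 48.3 FPKM in q2 and 25.8 FPKM in q1 (p = 0.0130, q = 0.506 in the authors' deposited table). These targets did not share a direction, and none passed. Tbx3, a T-box factor gene, had 7.01 FPKM in q2 and 12.5 FPKM in q1 (p = 0.0243, q = 0.649 in the authors' deposited table). Many of these genes also respond to other pathways.

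On the list of receptors and polarity genes that act without beta-catenin, 21 of 29 tested genes lay below 0. Ryk, a Wnt receptor of the kinase-like type, had 9.26 FPKM in q2 and 16.5 FPKM in q1 (p = 0.0457, q = 0.803 in the authors' deposited table), and it alone had a p below 0.05 there. Among nuclear partners of beta-catenin 15 of 17 tested genes lay below 0, with the corepressor genes Aes at 33.0 FPKM in q2 and 35.9 FPKM in q1 and Ctbp1 at 25.4 FPKM in q2 and 28.6 FPKM in q1. Among cytoplasmic kinases, scaffolds and regulators, 13 of 19 lay below 0. The most abundant of these were Ppp2r1a, a phosphatase scaffold, at 145 FPKM in q2 and 136 FPKM in q1, and the kinase gene Csnk1a1, at 37.2 FPKM in q2 and 54.8 FPKM in q1. Other extracellular and membrane modulators were split, with 10 of 21 below 0, and Tspan12, a partner of Fzd4 in norrin signalling, had 203 FPKM in q2 and 181 FPKM in q1. None of the genes on these last 3 lists had an unadjusted p below 0.05.

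Since AU-rich elements are what AUF1 recognises, the longest annotated 3' UTR of each tested member was searched for the heptamer TATTTAT on the transcript strand, in the GENCODE annotation of GRCm38. It was found in 21 of the 42 tested members, or 50%, against 29.7% of 13070 tested genes with an annotated 3' UTR. The members' 3' UTRs were longer, with a median of 1705.5 bases against 1136 bases, and a longer sequence holds any heptamer more often. The median log2 fold change was -0.43 for members with it and -0.18 for members without it, against -0.07 and 0.01 over all tested genes. Values below 0 were found for 15 of 21 members in each set. The other 6 members with the heptamer were higher in q2, namely Wls, Fzd1, Axin2, Dkk3, Dvl2 and Wnt9a. Of the 4 members with an unadjusted p below 0.05, Fzd7 and Fzd8 held 1 copy each, while Rspo1 and Tcf7 held none. For Fzd7, Wnt5a, Lrp6, Tcf7l2 and Fzd4, the match nearest the stop codon is shown, 5′ to 3′ on the transcript strand with the heptamer in capitals, as examples from a ligand, both receptor groups and a TCF factor. These 5 were picked with their values known and all were lower in q2, so their shared direction says nothing about the heptamer. A match is a description of the letters and does not show binding by AUF1.
Fzd7, chr1:59486837-59486866, + strand: aatatatattgTATTTATacatttttactt
Wnt5a, chr14:28522973-28523002, + strand: caggacccactTATTTATagaaagtacagt
Lrp6, chr6:134450603-134450632, - strand: gaagaaaagaaTATTTATatattttcttaa
Tcf7l2, chr19:55932532-55932561, + strand: tggaccagtagTATTTATtgctttagaggt
Fzd4, chr7:89409631-89409660, + strand: gtggcctggagTATTTATatgatgcctaat

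Wnt5a held 4 copies of the heptamer, the most of any tested member, Fzd4 and Lrp6 held 2 each, and Fzd7 and Tcf7l2 held 1 each. The match in Wnt5a began 44 bases after the stop codon, and that in Fzd7 began 2170 bases after it. The sites thus differ both in number and in place.

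The TCF core CTTTGAT was searched on both strands of promoters of 300 bases from RefSeq (GRCm38.p6), which were matched for 41 members with 51 promoters. It was found in 2 of them, or 3.92%, against 3.73% of all 32851 promoters in the table. These shares are close, so the core was not a particular trait of the members. The matches belong to Wnt5b, whose value is uncertain as described above, and Wnt11, and neither gene was called. The matches are shown in the direction of transcription with the core, or its reverse complement, in capitals. The Wnt11 promoter lies before the start given for that gene in the authors' deposited table.
Wnt5b, chr6:119449439-119449468, - strand: agtaagtctctCTTTGATctgctccctgtc
Wnt11, chr7:98835050-98835079, + strand: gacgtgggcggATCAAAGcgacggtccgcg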

How the data were processed

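RNA from 3 AUF1-null and 3 wild-type samples was sequenced. The submitters' processing notes name TopHat2 (2.0.9) and Cufflinks (2.2.1), and the sources used here give no annotation, library normalization or strand setting. Per the file headers, the table has the layout of Cuffdiff, and the authors deposited 1 value per gene and condition, which Cuffdiff writes as FPKM, although the headings name no unit. Further columns deposited by the authors hold a log2 fold change (q2 over q1), a test score that was not used here, a p-value and a q-value. The notes name the mm9 build, but all 62 members, and 99.5% of 21358 genes matched by symbol and chromosome, overlapped their RefSeq position in GRCm38, so coordinates are given in GRCm38, 1-based.

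Values were read with Python 3.11.15 and pandas 2.3.3. No test between samples was run. Calls needed the authors' status OK and q below 0.05. Sums, shares, ranks, medians and counts were computed here from the authors' values, as was a repeat of the Benjamini-Hochberg adjustment for genes of at least 1 FPKM, which was tested on simulated data. The table holds no depth, so precision per gene is unknown. The members and lists were chosen with earlier results of these data known. Both values are given for every tested member with a mean of at least 1 FPKM or an unadjusted p below 0.05. From the other pathway lists, up to 4 genes with the smallest p below 0.05 are named, or else the 2 with the highest mean. Fbxl14, Hnrnpd, Ccr7, Cd3e, Cd247, Calcr, Cdh15, Chodl, Fgfr4, Rgs5, Fabp4 and members under 1 FPKM were named after their values were seen. Alternatives covered thresholds, low values, pseudocounts, centring and leaving out the leading member of a role. Genes in overlapping positions are uncertain, as the strand setting is not known.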

Additional observations from a re-analysis of the deposited data

How the results depend on the processing

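Counts of called members stayed at 0 higher and 0 lower at a q below 0.10, at a q below 0.01 and with p-values adjusted again over genes of at least 1 FPKM. By Cuffdiff's unadjusted p, the 1 higher and 3 lower members became 0 and 0 at a threshold of 0.01, which is the stricter threshold's own doing. The median log2 fold change of the members stayed between -0.23 and -0.18 under the pseudocounts of 0.1 and 1, the minimum mean and centring. The summed level of Wls and Porcn, at a log2 ratio of 0.31, became -0.18 without Wls, since Porcn alone is then left. The R-spondin axis, at -0.033, became 0.055 without Rspo1, a setting added after seeing the data. In all, 37 of 41 alternative values of 13 results kept their direction and stayed within 1.5-fold. That count includes alternatives that could hardly move. No member had a q under 0.502, so the q thresholds of 0.10 and 0.01 could change nothing. The secretion, co-receptor, cytoplasmic and TCF/LEF roles held no untested member to leave out. Centring shifted the sums little, as the median of all tested genes was 7.602 FPKM in q2 and 7.604 FPKM in q1. A pseudocount of 1 FPKM moved the fold of 4 of 35 single genes by more than that, Rspo1, Tcf7, Wnt5a and Wnt5b, and turned no direction. No replicate could be left out, and no paired analysis was possible because the table holds 1 pooled value per condition. Most differences named lie below 5 FPKM, where values of all genes spread most, so a missing call does not show that a gene was unchanged.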

Other observations

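In the mouse genome several Wnt ligand genes lie beside one another. Every untested ligand was at or below 0.142 FPKM and every tested ligand at or above 0.230 FPKM in both conditions. An untested neighbour of a tested gene was therefore bound to be lower, which says nothing about neighbouring genes. Wnt9a, tested at 1.17 FPKM in q2 and 1.10 FPKM in q1, lies 16.2 kb from Wnt3a, which was listed at 0 in both conditions. Wnt6, at 0.440 FPKM in q2 and 0.485 FPKM in q1, lies 6.70 kb from Wnt10a, which was at 0.0176 FPKM in q2 and 0.142 FPKM in q1. In the pairs of Wnt9b with Wnt3 and of Wnt10b with Wnt1, no gene was tested, and Wnt3 and Wnt1 were listed at 0 in q1. None of these genes exceeded 0.114 FPKM in either condition, which is too low to compare neighbours. At least 1 gene of each of these 4 pairs was therefore untested.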
